A study of Mus musculus with 4 samples.

Results

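The desmosome and cadherin genes Dsg2, Dsg3, Dsc1, Dsc2, Dsc3, Dsp, Jup, Pkp1, Cdh1 and Cdh3 encode proteins that hold epidermal cells together, and were followed in FACS-sorted skin cells of newborn mice after induction of the microRNA miR-203. All probe sets annotated to exactly 1 gene with one of these 10 symbols were taken, which gave 20 of the 45037 probe sets and covered 9 of the 10 genes. No probe set in the annotation used here carried the single symbol Dsg3, so Dsg3, the desmoglein of the basal and spinous layers, was not analysed here. The other 9 genes had between 1 and 6 probe sets each.

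Of the 4 arrays, 2 were hybridised with RNA of induced pups, with the alleles K14-rtTA, TRE-miR-203 and K14-H2BGFP, and 2 with RNA of control littermates, with TRE-miR-203 and K14-H2BGFP and labelled WT. All pups were of the FVB background and were sampled at postnatal day 4, 24 h after doxycycline. Both groups therefore carried the miR-203 transgene and the green nuclear reporter, and they differed in the activator rtTA, which the keratin 14 promoter drives in basal keratinocytes and the follicle's outer sheath. Effects of rtTA and of miR-203 cannot be told apart. The labels do not describe the sort gate, and they call the replicates biological without saying whether a sample was 1 pup or a pool.

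Desmosomes rivet the keratin networks of neighbouring epidermal cells together. Their membrane proteins are desmogleins (Dsg) and desmocollins (Dsc), which are calcium-dependent cadherins. Plakoglobin (Jup) and plakophilin 1 (Pkp1) bind the cadherin tails, and desmoplakin (Dsp) links this plaque to keratin. Keratinocytes exchange cadherins as they leave the basal layer: Dsc3, Dsg3 and P-cadherin (Cdh3) are strongest near the base, Dsc1 replaces Dsc3 in the upper layers, and E-cadherin (Cdh1) is present throughout the living layers. In normal skin miR-203 increases as keratinocytes leave the basal layer, so that this set of genes holds members from both sides of that boundary.

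The endogenous miR-203 hairpin is encoded by the gene Mir203 on chr12 of GRCm38.p6, and its mature arms are shown because a microRNA recognises its targets mainly through its seed. The capitals mark the seed, bases 2 to 8 counted from the 5′ end, and both sequences are from RefSeq.
mmu-miR-203-3p: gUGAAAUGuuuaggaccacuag
mmu-miR-203-5p: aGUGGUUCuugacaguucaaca
The 3p arm lies at chr12:112130927-112130948 and the 5p arm at chr12:112130889-112130910, both on the plus strand. The arms have different seeds. The labels do not say which arm the transgene yields, and the microRNA itself was not measured here.

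Each value is a log2 RMA value, in which a difference of 1 is a doubling of signal. Values of different probe sets cannot be set against each other as amounts of RNA, because probes differ in brightness. Probe sets at or above a mean of 4.17 (the 40th percentile over the 4 arrays) were tested, and 19 of the 20 passed. The exception was the dimmer probe set of Cdh3, at 3.58 and 4.11 in induced arrays and 3.95 and 3.98 in control arrays. Replicates had Pearson correlations over probe sets of 0.994 (induced) and 0.995 (control), against 0.991 to 0.993 between groups. Induced replicate 1 stood apart in sex-linked transcripts, with 9.38 for the Y-linked gene Eif2s3y against 2.52 to 2.82 on the other 3 arrays. Basal and suprabasal keratinocyte markers were all detected (7 of 7 each). Of 6 endothelial markers 1 was above the filter level, Cdh5 and Pecam1 being below it, and of 6 dermal fibroblast markers 3 were, with Col1a1, Lum and Pdgfra below it. Melanocyte markers and markers of Langerhans and other immune cells were all above the filter level (7 of 7 each). Of 6 skeletal muscle markers 4 were.

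Across the 9 genes, each represented by its brightest probe set, the median difference between induced and control means was 0.01, against -0.00 over all 13489 genes. Means were higher in induced arrays for 6 genes and lower for 3, where 49.6% and 50.4% of all genes were. None of the 19 probe sets passed limma's moderated test at an adjusted p of 0.05 over the 27022 probe sets, where the background was 0% of all probe sets, and 2 had an unadjusted p under 0.05, both of them of Dsc2, where the background was 10.1%. With the trended and robust variance prior, limma called 126 probe sets in all (0.466%) and again none of the 19. Both induced arrays lay on one side of both controls for 7 of the 19 probe sets, 4 higher and 3 lower, which is 36.8% beside a background of 39.1% (20.9% higher and 18.2% lower). Counted by gene, with the brightest probe set, it was 6 of 9, 3 higher and 3 lower (background 20.1% and 19.3% of genes). With 2 arrays against 2, an exact permutation test of a single gene cannot give a two-sided p below 0.333, and the small number of arrays limits every value. In such bulk samples fewer cells of a type and less RNA per cell cannot be told apart.

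**Figure D1:**
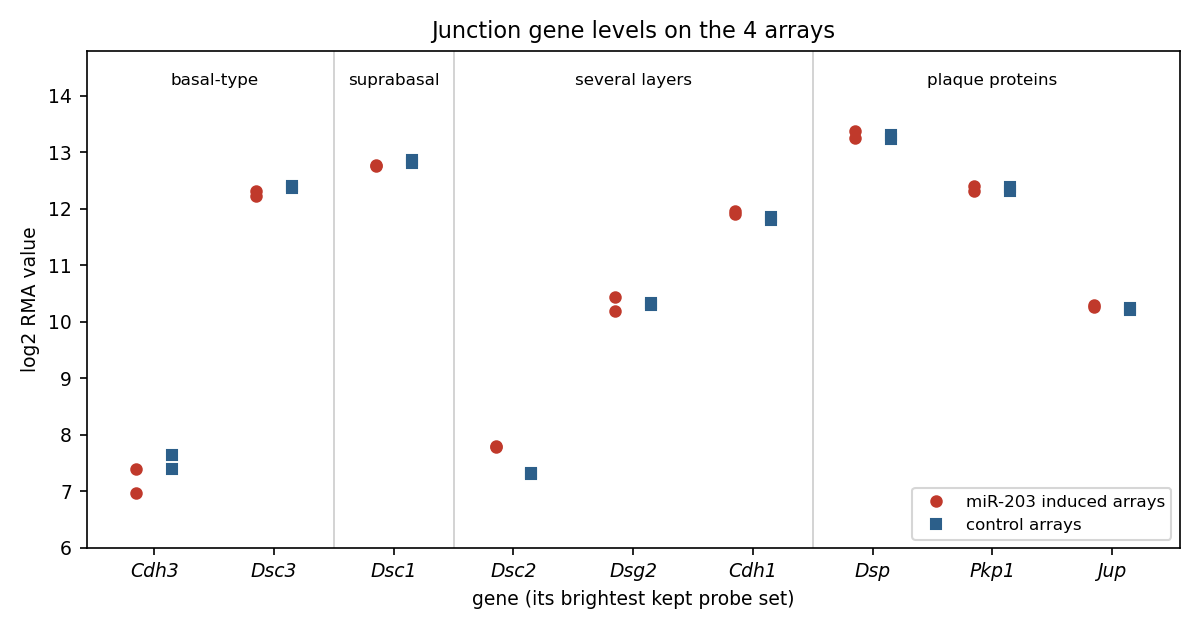
Log2 RMA value (vertical axis) of the brightest kept probe set of each gene (horizontal axis), with the induced arrays as red circles and the control arrays as blue squares, 2 of each. Dsc2 has induced values of 7.78 and 7.79 above control values of 7.31 and 7.33, and heights of different genes cannot be compared because probes differ in brightness.

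Dsc2 stood furthest from 0 among the members. It encodes desmocollin 2, the desmocollin found in most tissues that have desmosomes. Its brighter probe set had values of 7.78 and 7.79 in induced arrays, against 7.31 and 7.33 in control arrays. The 2 groups were apart by far more than the gap between replicates. The difference was 0.47 ± 0.09 (SE, n = 2 and 2), or 1.38-fold, with a 95% interval of 1.18 to 1.62-fold, and limma's adjusted p was 0.229. Its other probe set had 5.98 and 6.18 in induced arrays, against 5.55 and 5.86 in control arrays. There too both induced values lay above both controls, though the control replicates were further apart. The difference was 0.38 ± 0.14, or 1.30-fold, with an interval of 1.02 to 1.65-fold and an adjusted p of 0.464 in limma. Of all genes, 96.8% had an absolute difference no larger than that of the brighter probe set. With 1 array left out at a time its difference stayed between 0.46 and 0.48, and the lowest adjusted p in any setting was 0.110. Markers of the hair follicle lineage were also higher in the induced arrays, 8 of 9 without overlap (background for that direction 20.1% of genes), with a summed linear signal of 26788 and 32275 in induced arrays and 15797 and 19677 in control arrays. In such a sum the brightest probe sets weigh most. The part of hair follicle cells in the Dsc2 difference was not tested.

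The other cadherins found in several layers gave smaller differences. Cdh1, the classical cadherin of adherens junctions in all living layers, had 11.90 and 11.96 in induced arrays, against 11.85 and 11.81 in control arrays. The groups did not overlap, but they lay only 0.10 ± 0.10 apart (SE; adjusted p = 0.816 in limma), with an interval that reaches no further than 1.26-fold higher. Dsg2, the desmoglein most widely found outside the epidermis, had 10.19 and 10.45 in induced arrays, against 10.30 and 10.34 in control arrays. Here the control values fell between the induced ones, and the difference was 0.0018 ± 0.12. The other 5 Dsg2 probe sets, of mean log2 values from 5.4 to 9.5, had differences from -0.03 to 0.15, and the groups overlapped in each of the 6.

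Both basal-type genes measured had lower means in induced arrays, and neither passed the test. Cdh3, the P-cadherin of the basal layer and the follicle matrix, had 6.97 and 7.39 in induced arrays, against 7.64 and 7.39 in control arrays. Induced replicate 2 and control replicate 2 were all but equal, at 7.388 and 7.389, so that the separation of the groups rests on a gap far smaller than that between replicates. The difference was -0.34 ± 0.17 (SE), 1.26-fold lower, with an adjusted p of 0.590 in limma and an interval from 1.69-fold lower to 1.06-fold higher. Single arrays decided its size, which was -0.13 without induced replicate 1 (in which Eif2s3y was high), -0.55 without induced replicate 2, -0.21 without control replicate 1 and -0.46 without control replicate 2.

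Dsc3, the main desmocollin of the basal and spinous layers, had 12.32 and 12.23 in induced arrays, against 12.37 and 12.41 in control arrays. Its induced values were both below the controls, but the difference was close to its standard error, -0.11 ± 0.10 (adjusted p = 0.785 in limma). The interval ran from 1.27-fold lower to 1.09-fold higher. The dimmer Dsc3 probe set had 6.87 and 6.67 in induced arrays, against 6.87 and 7.0 in control arrays. Those groups overlapped, at a difference of -0.16 ± 0.12. General basal markers were lower in the same arrays, 6 of 7 without overlap (background for that direction 19.3% of genes) and with a median difference of -0.17. The other marker, Itgb4, had a higher mean. Trp63, among the 6, had 2 other kept probe sets with a difference of the opposite sign. The summed linear signal of the basal markers was 37985 and 36748 in induced arrays and 42532 and 42812 in control arrays. Krt14 and Krt5 were the brightest of these markers and weigh most in that sum. The part of the basal markers in the Dsc3 and Cdh3 differences was not tested. Suprabasal markers were lower too but by less, with a median difference of -0.05. Of those 7, 5 were lower without overlap (background again 19.3% of genes) and 2 had a higher mean. Their summed signal was 115587 and 110630 in induced arrays and 116600 and 116838 in control arrays.

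Dsc1, the desmocollin that takes over in the upper layers, had differences near 0. Its brighter probe set had 12.77 and 12.76 in induced arrays, against 12.87 and 12.81 in control arrays. Both induced values were the lower ones, by 0.08 on average (difference -0.08 ± 0.09 SE, adjusted p = 0.869 in limma). The other Dsc1 probe set had 9.35 and 9.37 in induced arrays, against 9.42 and 9.31 in control arrays, and there the groups overlapped at a difference of -0.0034 ± 0.10. Taken within each array, the brighter Dsc1 value minus the brighter Dsc3 value was 0.45 and 0.53 in induced arrays and 0.50 and 0.41 in control arrays. That quantity shows only whether the pair shifted unequally, and its group means differed by 0.03 with overlapping groups. The same within-array quantity for Dsc1 minus Cdh3 differed by 0.26, with overlap. For Dsc2 minus Dsc3 it differed by 0.58, both induced arrays (-4.54 and -4.44) lying above both controls (-5.06 and -5.08). For Cdh1 minus Cdh3 it differed by 0.43, and there too both induced arrays (4.93 and 4.57) lay above both controls (4.21 and 4.42). Dsc2 and Cdh1 were each higher without overlap, and Dsc3 and Cdh3 each lower. The lack of overlap in both pairs therefore followed from the single genes and adds nothing to them. For Dsp minus Jup the quantity differed by -0.01, with overlap.

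The plaque genes lay close to 0. Dsp had 13.38 and 13.26 in induced arrays, against 13.24 and 13.30 in control arrays. The groups overlapped, and the difference was 0.05 ± 0.10 (SE), with 0.0100 ± 0.10 and -0.01 ± 0.14 for its other probe sets. Pkp1 had 12.41 and 12.32 in induced arrays, against 12.31 and 12.39 in control arrays. Its groups overlapped as well, at 0.0096 ± 0.10. Jup had 10.30 and 10.26 in induced arrays, against 10.24 and 10.20 in control arrays, which did not overlap, at 0.06 ± 0.09. Over the brightest probe sets of these 3 genes the intervals ran from 1.18-fold lower (Pkp1) to 1.23-fold higher (Dsp), so larger differences in their signal lay outside the intervals. Dsp and Pkp1, like Dsc1 and Dsc3, were among the brightest 1% of probe sets.

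**Figure D2:**
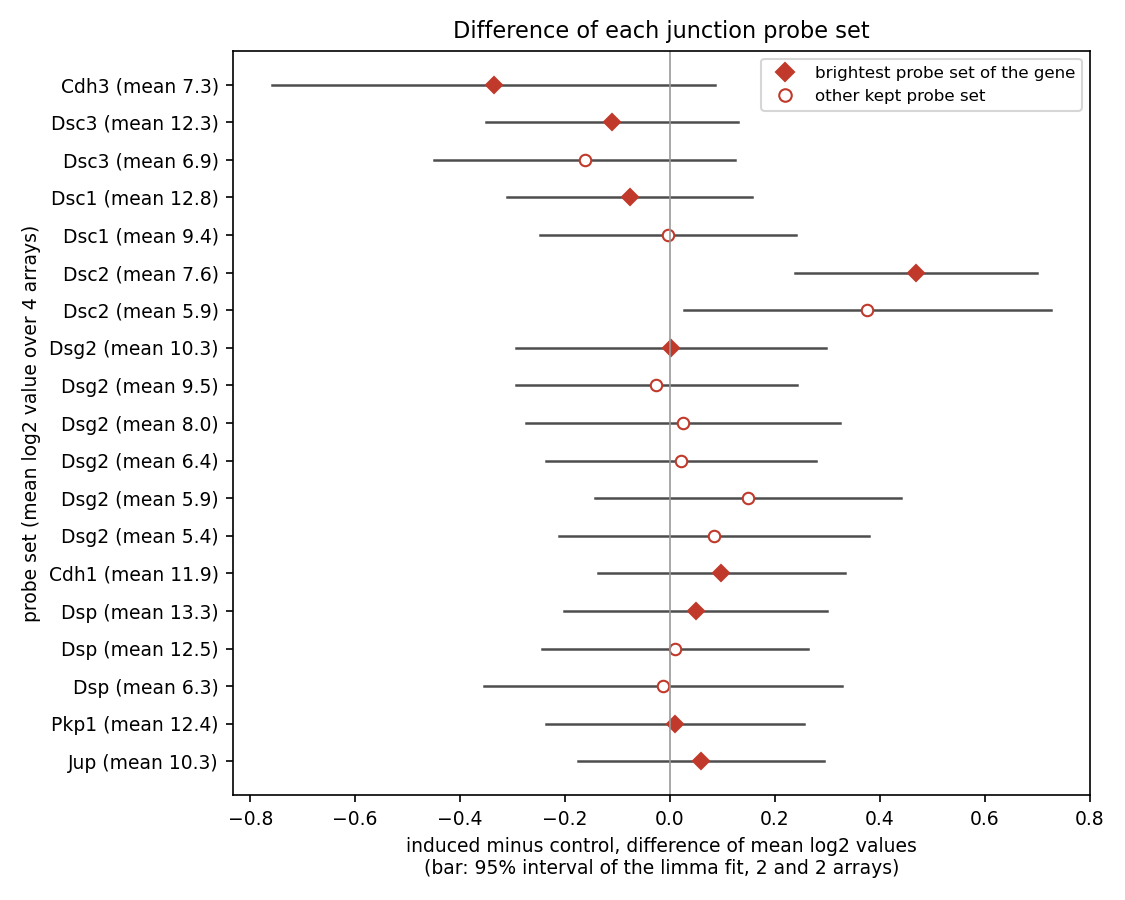
Induced minus control difference of mean log2 values (horizontal axis) for the 19 kept probe sets, each named with its gene and mean log2 value, with the 95% interval of the limma fit as a bar and the brightest probe set of a gene as a filled diamond. The bars of both Dsc2 probe sets lie above 0, from 0.24 to 0.70 and from 0.03 to 0.73, and the bars of the other 17 cross 0.

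**Figure D3:**
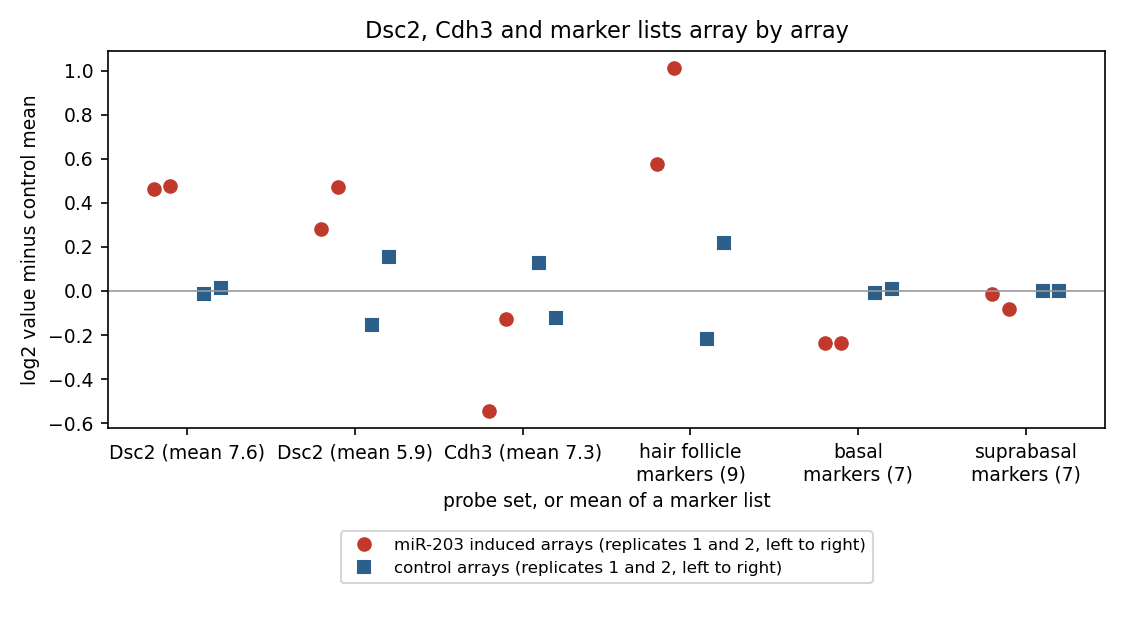
Log2 value of each array minus the mean of the control arrays (vertical axis) for the Dsc2 probe sets, the brighter Cdh3 probe set and the mean of 3 marker lists, with induced arrays as red circles and control arrays as blue squares. The brighter Dsc2 probe set has tight groups, Cdh3 is spread within the induced pair (6.97 and 7.39), and the hair follicle list is spread within both groups.

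The remaining desmosome proteins were mostly near 0 too. Of the 11 listed, 9 had a kept probe set, 7 with a higher and 2 with a lower mean in induced arrays, and none passed the test (median difference 0.09). By their brightest probe sets none had an unadjusted p under 0.05 either, where 9.62% of all genes did. Groups did not overlap for 5 of the 9, 4 higher and 1 lower (background 20.1% and 19.3% of genes). Pkp2, the plakophilin of simple epithelia and heart, had 4.71 and 5.62 in induced arrays, against 4.63 and 4.56 in control arrays. Only induced replicate 2 was far above the controls, so the difference of 0.57 ± 0.28 (SE) became 0.12 without that array, and 1.03 without induced replicate 1. Its other kept probe set had 4.98 and 5.07 in induced arrays, against 4.35 and 4.57 in control arrays (0.56 ± 0.12, unadjusted p = 0.0030 and adjusted p = 0.238 in limma), all of these values being near the filter level of 4.17. Pkp3, a plakophilin of stratified and simple epithelia, differed by 0.14 ± 0.09, and the cornified envelope plakins envoplakin (Evpl) and periplakin (Ppl) differed by 0.12 ± 0.10 and -0.11 ± 0.10. Perp, a tetraspan protein of desmosomes, had 13.78 and 13.81 in induced arrays, against 13.77 and 13.79 in control arrays (0.02 ± 0.09). Dsg1a and Dsg1b, near-identical copies of the desmoglein of the upper layers whose probes may share signal, differed by 0.0077 ± 0.09 and -0.07 ± 0.10.

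Among beta-, alpha- and p120 catenin, the partners of E- and P-cadherin inside the cell, beta-catenin had the most negative difference. It is also the effector of Wnt signalling. Ctnnb1 had 12.15 and 12.22 in induced arrays, against 12.46 and 12.49 in control arrays. The groups were well apart, at -0.29 ± 0.10 (SE), 1.22-fold lower, though not past the threshold (adjusted p = 0.414 in limma). Its other 2 probe sets were lower as well, at -0.48 ± 0.09 and -0.38 ± 0.14, without overlap. Alpha-catenin (Ctnna1), which links beta-catenin to actin, differed by 0.10 ± 0.11, and p120 catenin (Ctnnd1), which holds cadherins at the membrane, by -0.06 ± 0.10. A dimmer probe set of Ctnna1 had 5.41 and 5.17 in induced arrays, against 4.48 and 4.85 in control arrays. Of the 15 adherens junction genes 11 had a higher and 4 a lower mean, with a median of 0.10 that ranged from 0.04 without induced replicate 2 to 0.21 without induced replicate 1. None passed, and 3 had an unadjusted p under 0.05, 1 higher and 2 lower (background in either direction 9.62% of genes). Groups did not overlap for 9 of the 15, 6 higher and 3 lower (background 20.1% and 19.3% of genes). Of the 6 higher, Nectin1 and Shroom3 each had 1 other kept probe set with a difference of the opposite sign, and Plekha7 had 2. The alpha-catenin-like gene Ctnnal1 was lowest (-0.36 ± 0.10). The nectin genes Nectin4 and Nectin2, whose products are immunoglobulin-like adhesion molecules, were at 0.34 ± 0.13 and 0.23 ± 0.10. A second probe set of Nectin4 was at 0.02 ± 0.11.

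Tight junction genes had the highest median of the junction lists, 0.23, against -0.00 over all genes. Of 13 kept genes, 11 had a higher mean in induced arrays. Of the 13, 10 (76.9%) were higher with groups that did not overlap, where the background for that direction was 20.1% of genes. Cldn1 and F11r, both among the 10, each had 1 other kept probe set with a difference of the opposite sign. None of the 13 passed at an adjusted p of 0.05, where the background of genes was 0%. Of the 13, 6 had an unadjusted p under 0.05 in the higher direction (background 4.40%). Claudin 3 (Cldn3), a membrane strand protein, had 7.06 and 7.33 in induced arrays, against 6.43 and 6.41 in control arrays. The groups were clearly apart, 0.78 ± 0.12 (SE) or 1.71-fold, with an adjusted p of 0.193 in limma, and its other 3 probe sets were at 0.48 to 0.59. Marveld3, a tight junction protein of the occludin family, had 7.68 and 7.47 in induced arrays, against 7.03 and 6.95 in control arrays (0.59 ± 0.11; 0.15 ± 0.11 in its other kept probe set). Claudin 12 (Cldn12) and claudin 4 (Cldn4) were at 0.38 ± 0.10 and 0.40 ± 0.10. The median stayed between 0.23 and 0.26 with each array left out. The hair follicle markers given above were higher in the same arrays, and their part here was not tested.

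Connexins, the channels of gap junctions, had 1 of 4 genes without overlap between groups, higher in induced arrays, which is near the background of 20.1% for that direction, and none passed. Gjb2, the connexin whose loss causes deafness in humans, had 9.87 and 10.06 in induced arrays, against 9.37 and 9.46 in control arrays. The induced values were both well above, by 0.55 ± 0.11 (SE) or 1.46-fold (adjusted p = 0.232 in limma). Gja1, the most widely found connexin, was at -0.07 ± 0.10, and Gjb5 and Gjb6 at 0.06 ± 0.11 and -0.01 ± 0.11. Of 9 further cadherin-superfamily genes kept of 14, 6 had a higher mean (median 0.06) and none passed, while 4 had an unadjusted p under 0.05, all higher (background for that direction 4.40% of genes). Cdh6, near the filter level, was at 0.44 ± 0.16 and a second probe set of it at -0.05 ± 0.15. The protocadherins Pcdh7 and Pcdh1 and the planar polarity cadherin Celsr1 were at 0.41 ± 0.15, 0.28 ± 0.10 and 0.28 ± 0.10. That median was 0.21 without induced replicate 1, 0.02 without induced replicate 2, 0.11 without control replicate 1 and 0.31 without control replicate 2. Neural cadherin (Cdh2) and the vascular cadherin Cdh5 were below the filter level.

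The keratins to which desmosomes attach were lower by small amounts, all 5 kept without overlap between groups (background for that direction 19.3% of genes). All 5 were also among the basal and suprabasal markers given above, so this count is not separate from theirs. None passed, and 1, Krt15, had an unadjusted p under 0.05 (background in either direction 9.62% of genes). The basal keratins Krt15, Krt5 and Krt14 differed by -0.33 ± 0.10 (SE), -0.17 ± 0.09 and -0.13 ± 0.09, and the suprabasal keratins Krt1 and Krt10 by -0.11 ± 0.10 and -0.07 ± 0.10. The other Krt14 probe sets were at -0.14 ± 0.10 and, for the dimmest, -0.25 ± 0.10.

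**Figure D4:**
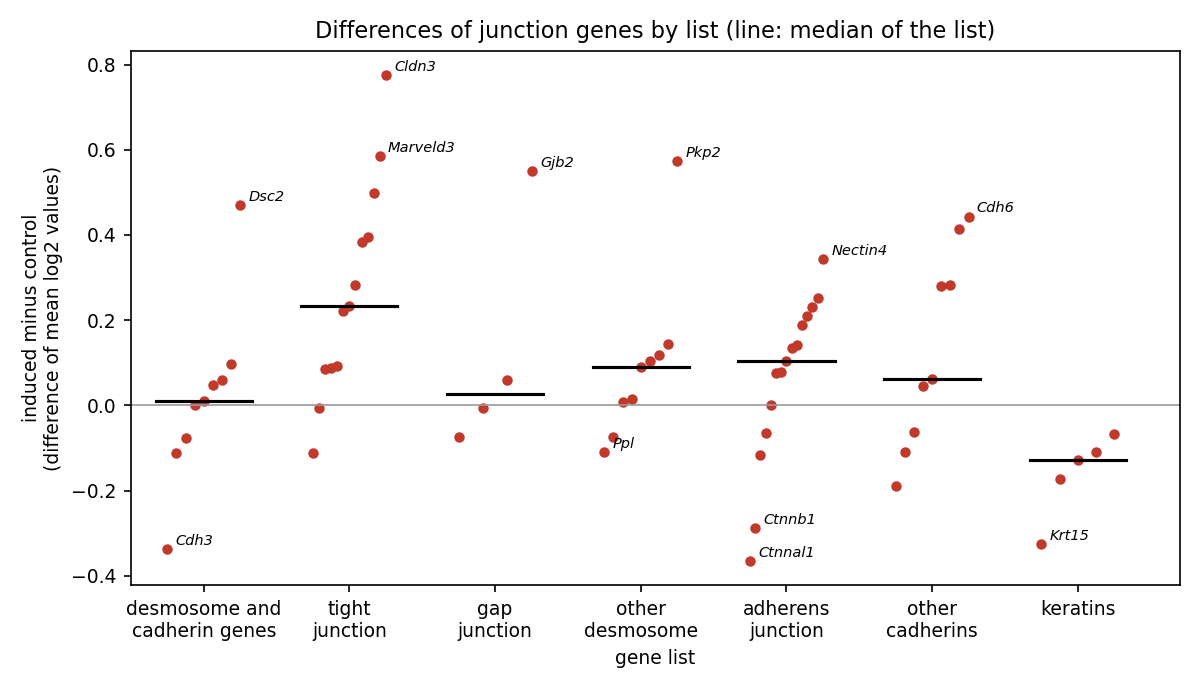
Induced minus control difference of mean log2 values (vertical axis) for each gene by list, a point being a gene's brightest kept probe set and a black line the median of its list. The desmosome and cadherin genes centre on 0.01 between Cdh3 at -0.34 and Dsc2 at 0.47, and the tight junction list has the highest median, 0.23.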

How the data were processed

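The deposited table holds log2 values for 45101 probe sets on 4 arrays, made by the authors with RMA (per the submitters' processing notes, without a version), which corrects the background, quantile normalizes and summarises probe sets. That step hides any overall change in RNA content. The 64 AFFX control probe sets were left out. Gene names came from the platform annotation, in which 34945 of the 45037 remaining probe sets carried 1 gene, 932 several and 9160 were not listed; 34741 were matched to RefSeq (GRCm38.p6) for current symbols. Gene coordinates are not given, as the array's build is unknown here.

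Probe sets with a mean at or above the 40th percentile (27022, standing for 13489 genes) were tested with limma 3.58.1 in R 4.3.3 (lmFit, eBayes, two-sided, Benjamini-Hochberg), with 2 residual and 3.82 prior degrees of freedom. With so few residual degrees of freedom, the p-values lean on the pooled variance. A gene stood for its brightest kept probe set. The test was checked on simulated data with normal errors and variances drawn from limma's own kind of prior. That check covers the working of the test, not whether its assumptions hold here.

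The members and gene lists were chosen with earlier results of these data known. Named genes were all members, the 4 of each list with the most extreme moderated statistic, and 8 chosen by name (Ctnnb1, Ctnna1, Ctnnd1, Perp, Krt5, Krt14, Krt1, Krt10). Dsg1a, Dsg1b, Cldn1, F11r and the list genes below the filter were added after their values were seen. The labels do not say that equal replicate numbers share a litter, so no block was used.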

Additional observations from a re-analysis of the deposited data

How the results depend on the processing

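The alternatives were a stricter filter (60th percentile) or none, median centring, repeated quantile normalization, a trended robust prior, the replicate number as a block, averaging the probe sets of a gene, leaving out each array in turn and, for the member probe sets alone, leaving out those with an _x_at or _s_at suffix. None of the member or junction genes passed an adjusted p of 0.05 under the alternatives run for them, the lowest being 0.110 for Dsc2 and 0.0563 for a junction gene, both with the trended robust prior. That prior called 126 of all probe sets, against 0, and leaving out 1 array gave 0 to 6, the 6 without induced replicate 2. With the replicate block 0 probe sets passed (lowest adjusted p = 0.395); the deviations of same-numbered arrays correlated at -0.10, and a crossed pairing, added after the data were seen, gave 0 calls. Dsc2, Dsc3, Cdh1, Cdh3, Jup and the brighter Dsc1 probe set kept their direction in every setting that refitted them, which leaving out probe sets by suffix did not. The signs of differences near 0 turned: with repeated quantile normalization the brightest Dsg2 probe set was at -0.0010, the middle Dsp probe set at -0.0118 and Pkp1 at -0.0120, and with median centring that Dsg2 probe set was at -0.0032. With 1 array left out, the Dsg2 probe sets that turned ranged from -0.12 to 0.13 (brightest), -0.12 to 0.067, -0.087 to 0.14, -0.058 to 0.10 and -0.023 to 0.19 (dimmest), the Dsp probe sets from -0.013 to 0.11, -0.057 to 0.077 and -0.18 to 0.15, Pkp1 from -0.034 to 0.053, the dimmer Dsc1 probe set from -0.058 to 0.051, Gja1 from -0.15 to 0.0021, Gjb5 from -0.028 to 0.15, Gjb6 from -0.094 to 0.082 and Perp from -0.0015 to 0.034; the cause was not tested. The number of arrays, and for Cdh6, Pkp2 and the dimmer Cdh3 probe set a signal near the filter level, limit the precision.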
